A study of Zea mays subsp. mays and Zea mays subsp. parviglumis and Zea luxurians with 126 samples.

Results

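The sites described here are places where miR156 or miR529 was predicted to cut a Zea messenger RNA and where a read began at the predicted cut. The members are all genes outside PHAS loci (the loci that give phased small interfering RNAs) that had such a site in any table of miRNA cleavage sites and an Allen score of at most 4. This score adds penalties for imperfect pairing, and a perfectly paired site scores 0. This rule gave 119 members of 2808 genes with any miRNA site under the same score limit, from 490 of 92668 table rows. A gene counts once in each set of libraries mapped to its genome: 12 members belonged to B73, 17 to HP301, 14 to Il14H, 11 to Oh43, 21 to TIL11, 10 to TIL25, 11 to RIL003 and 23 to the ago18 plants. The ago18 libraries were mapped to the same genome as B73, and 8 identifiers were in both sets (66.7% of the B73 list and 34.8% of the ago18 list), which leaves 111 distinct identifiers.

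The length of an anther gave its stage, and total RNA of each sample went into a Smart-seq2 library and a nanoPARE library, which captures RNA 5′ ends. The 63 tables of miRNA sites fell into 24 groups of 2 or 3 libraries, each from distinct plants. B73, HP301, Il14H and Oh43 are maize inbred lines, sampled at 0.4 mm (before meiosis) and 2 mm (meiosis). TIL11 (Zea mays ssp. parviglumis) was sampled at 0.4, 0.7, 1, 1.5 and 2 mm, TIL25 (ssp. mexicana) at 0.4 and 1.5 mm, and RIL003 (Zea luxurians) at 0.4, 0.7 and 1.5 mm. These 3 are teosintes, the wild relatives of maize, and were grown in a chamber rather than a greenhouse, so wild origin and growth conditions cannot be told apart. The ago18HM plants were homozygous for mutations in ago18a, ago18b and ago18c (CRISPR frameshifts in the first and second of these genes, a Mu insertion in the last, no transgene left) in a largely B73 background, and the ago18HT plants were siblings heterozygous at all 3 genes, both sampled at 0.5, 2 and 5 mm. The comparison plants therefore carried the mutant alleles too. The tables hold cut sites and no transcript levels, so the tissue label could not be set against anther markers.

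miR156 is among the most conserved plant miRNAs. Its known targets are SBP-box genes (SPL genes), which encode transcription factors that promote the passage from juvenile to adult growth and shape inflorescences. In maize, the dominant Corngrass1 mutant overexpresses miR156, and the domestication gene teosinte glume architecture1 is an SBP-box gene. miR529 is related in sequence to miR156 and targets some of the same SBP-box genes in grasses. In Arabidopsis, SPL proteins activate MIR172 genes, whose miRNA acts on AP2-like messenger RNAs. The guide strand of both miR156 and miR529 comes from the 5′ arm of the hairpin (5p). The 3p strand is the other side of the duplex.

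The 41 small RNA names behind the member rows stood for 11 sequences in the study's list of expressed miRNAs, with 5 names not matched to a sequence. They are shown because they define which rows belong to the guide strands and which to the opposite arm. Each is written 5′ to 3′ with the seed (bases 2 to 8) in capitals, first the miR156 guide forms, then miR529, then the opposite arms.
miR156c: uGACAGAAgagagagagcac
miR156a: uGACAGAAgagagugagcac
miR156e: uGACAGAAgagagcgagcac
miR156 (21 nt): uUGACAGAagagagugagcac
miR156e-like: uUGACAGAagagagcgagcac
miR156c-like: aUGACAGAagagagagagcac
miR529-5p: aGAAGAGAgagaguacagccu
miR529-3p: gCUGUACCcucucucuucuuc
miR156g-3p: gCUCACUUcucuuucugucagc
miR156k-3p: gCUCGCUUcucuuucugucagc
miR156j-3p: gCUCUCUGcucucacugucauc
The miR156 guides shared the seed GACAGAA in the 20-nt forms and UGACAGA in the 21-nt forms, whereas miR529-5p had GAAGAGA. miR156c was named at 37 member genes, 34 of which passed in at least 1 library. miR529-5p was named at 17 genes, 12 of which passed, and miR156a at 15 genes, 5 of which passed. miR529-3p was named at 13 genes, none of which passed. Here a site passed when the adjusted p-value that the authors' pipeline gave it in that library was below 0.05. Since no table repeated a transcript position under another miRNA, each site carries a single name, and these counts do not separate forms that pair with the same site.

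The seeds of miR156 and miR529 differ, but the sequences overlap further in. In the next pair the capitals mark the longest run that miR156c shares with miR529-5p, 13 nt that start at base 5 of miR156c and base 1 of miR529-5p.
miR156c: ugacAGAAGAGAGAGAGcac
miR529-5p: AGAAGAGAGAGAGuacagccu
The shared run was 9 nt in miR156a and miR156e. Pairing of both miRNAs with the same stretch of a target would place the miR529 cut 4 nt upstream of the cut by a 20-nt miR156.

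Guide-strand sites passed more often than 3p sites among the members, though not among members with scores of 3 to 4. Of the 119 members, 61 (51.3%) passed in at least 1 library, against 36.1% of all 2808 genes. In at least 2 libraries of a group, 20 of the 119 members passed, against 367 of the 2808 genes (13.1%). These last shares lie nearer to each other. Of the 88 members with a guide-strand site, 58 passed (65.9%) and 20 passed in at least 2 libraries of a group. Of the 31 members with 3p sites alone, 3 passed (9.68%) and none did so in 2 libraries of a group. Pairing differed as well: 42 of 44 guide-strand members with a lowest score of 0 to 1 passed, as did 15 of 18 with a score of 1.5 to 2.5, but only 1 of 26 with a score of 3 to 4. Among the 3p members 30 of 31 scored 3 to 4, of which 2 passed, and the 1 with a score of 1.5 to 2.5 passed. The contrast between the arms is therefore not separate from the scores. The pipeline's p-value takes the pairing score into account, so the fall with the score is a description and not a separate result.

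**Figure D1:**
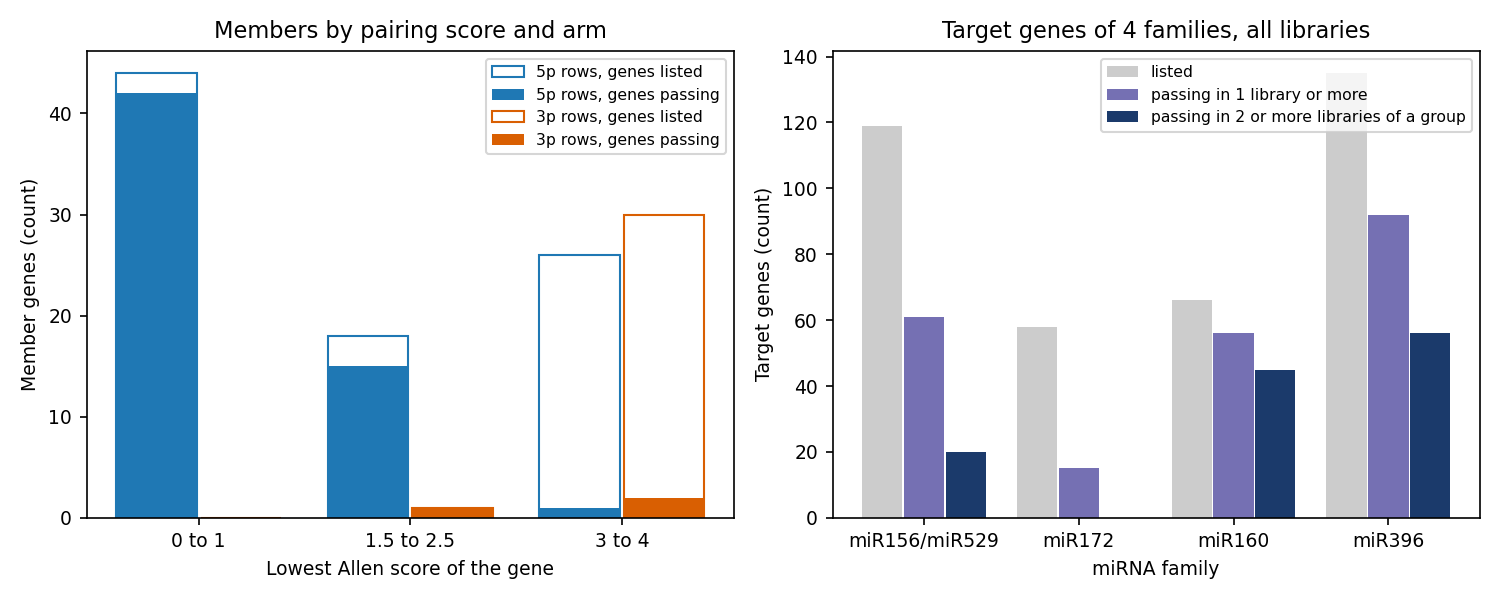
Left, member genes (count) by the gene's lowest Allen score, with outlined bars for genes listed and filled bars for genes passing in at least 1 library, in blue for 5p (guide) rows and orange for 3p rows; guide-strand members passed in 42 of 44 cases at scores of 0 to 1 and in 1 of 26 at scores of 3 to 4. Right, target genes (count) of miR156/miR529, miR172, miR160 and miR396 that were listed, that passed, and that passed in at least 2 libraries of a group (20, 0, 45 and 56 genes).

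The signal at these sites was thin. The values are RPM (reads per 1000000) that start at the slice site, and the most frequent value of a library was taken as 1 read, which put the libraries at 1.35 to 18.7 M reads (median 7.55 M, where M stands for 1000000) and 1 read at 0.0536 to 0.743 RPM. The 230 values of members in a library had a median of 1 read and a maximum of 13 reads, and 59.6% stood at about 1 read or less (under 1.5). Values below 1 read arise where the tables split a read between genes. Of the members, 62 were listed in a single library and 57 in 2 or more. TIL25 replicate 1 at 0.4 mm (2.56 M reads) and ago18HM replicate 1 at 0.5 mm (1.35 M reads) listed no member. A member that was not listed in a library is given as 0 below, which at these depths does not show that its messenger RNA was not cut.

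Only part of the members can be called SBP genes. The study named 10 of them as SBP genes in its list of conserved targets, a list chosen on these same libraries. For the other members no annotation was used here, and they are called by identifier. All 10 SBP members had guide-strand sites with scores of 0 or 1, and all 10 passed in at least 2 libraries of a group. The latter follows from how the list was chosen.

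The set with members in the most varieties held Zm00027ab327070 (HP301), Zm00028ab330900 (Il14H), Zm00039ab329060 (Oh43) and Zv00002aa029497 (TIL11), which the study placed in the same pangene set, that is, as counterparts of each other. All 4 had miR156 sites with a score of 1. In HP301, Zm00027ab327070 stood at 0 and 0.0948 RPM at 0.4 mm and at 0.482 and 0.532 RPM (9 and 7 reads) at 2 mm. The 2 lengths, with 2 libraries each, did not overlap. Overlap was not counted over all features, but 28.4% of the 194 HP301 features tested were called higher at 2 mm (limma). In Il14H, Zm00028ab330900 stood at 0.0877, 0.0958 and 0.173 RPM at 0.4 mm and at 0 and 0.116 RPM at 2 mm. In Oh43, Zm00039ab329060 stood at 0.302 and 0.106 RPM at 0.4 mm and at 0.0905, 0 and 0.447 RPM at 2 mm, so its lengths overlapped, as they did in Il14H. In TIL11, Zv00002aa029497 stood at 0.334 and 0.169 RPM at 0.4 mm. It was listed in 1 of 3 libraries at 0.7 mm (0.127 RPM), in 2 of 3 at 1 mm (0.187 and 0.163 RPM), in 1 of 3 at 1.5 mm (0.187 RPM) and in none at 2 mm.

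The member that passed in the most libraries was Zv00002aa009653 in TIL11, another SBP gene with a miR156 site of score 1, which was listed and passed in 13 of 14 libraries. It stood at 0.667 and 0.339 RPM at 0.4 mm, at 0.889, 0.122 and 0.544 RPM at 0.7 mm, at 0.871, 1.22 and 0 RPM at 1 mm, at 0.132, 0.562 and 0.283 RPM at 1.5 mm, and at 0.426, 0.206 and 0.604 RPM at 2 mm. Every length overlapped every other. The highest value, 1.22 RPM, was also the deepest site of all members at 13 reads, and the only library without it was of the same length. Meiotic anthers (1.5 and 2 mm) differed from premeiotic ones (0.4 and 0.7 mm) by -0.34 ± 0.66 (SE) on the log2(RPM + 0.1) scale (limma, adjusted p = 0.762).

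Zv00002aa021340 in TIL11, an SBP gene with a perfectly paired miR156 site, was listed up to 1 mm and not beyond. It stood at 0.111 and 0 RPM at 0.4 mm, at 0, 0.122 and 0.363 RPM at 0.7 mm, and at 0.218, 0.187 and 0.327 RPM at 1 mm. All 6 libraries of 1.5 and 2 mm stood at 0. Each listed value rested on 1 or 2 reads. The difference of 1.5 mm from 1 mm was -1.76 ± 0.58 (SE) on the log2(RPM + 0.1) scale and missed the threshold (limma, adjusted p = 0.0543). Its pangene counterpart in Il14H, Zm00028ab238260, was listed at 0.0877 and 0.192 RPM (1 and 2 reads) in replicates 3 and 4 of 0.4 mm. It was not listed in replicate 5 of 0.4 mm or at 2 mm, so the lengths overlapped. The difference of 2 mm from 0.4 mm was -0.82 ± 0.55 (SE) on the same scale (limma, adjusted p = 0.274). Its direction follows from the filter, since only libraries of 0.4 mm listed the gene.

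**Figure D2:**
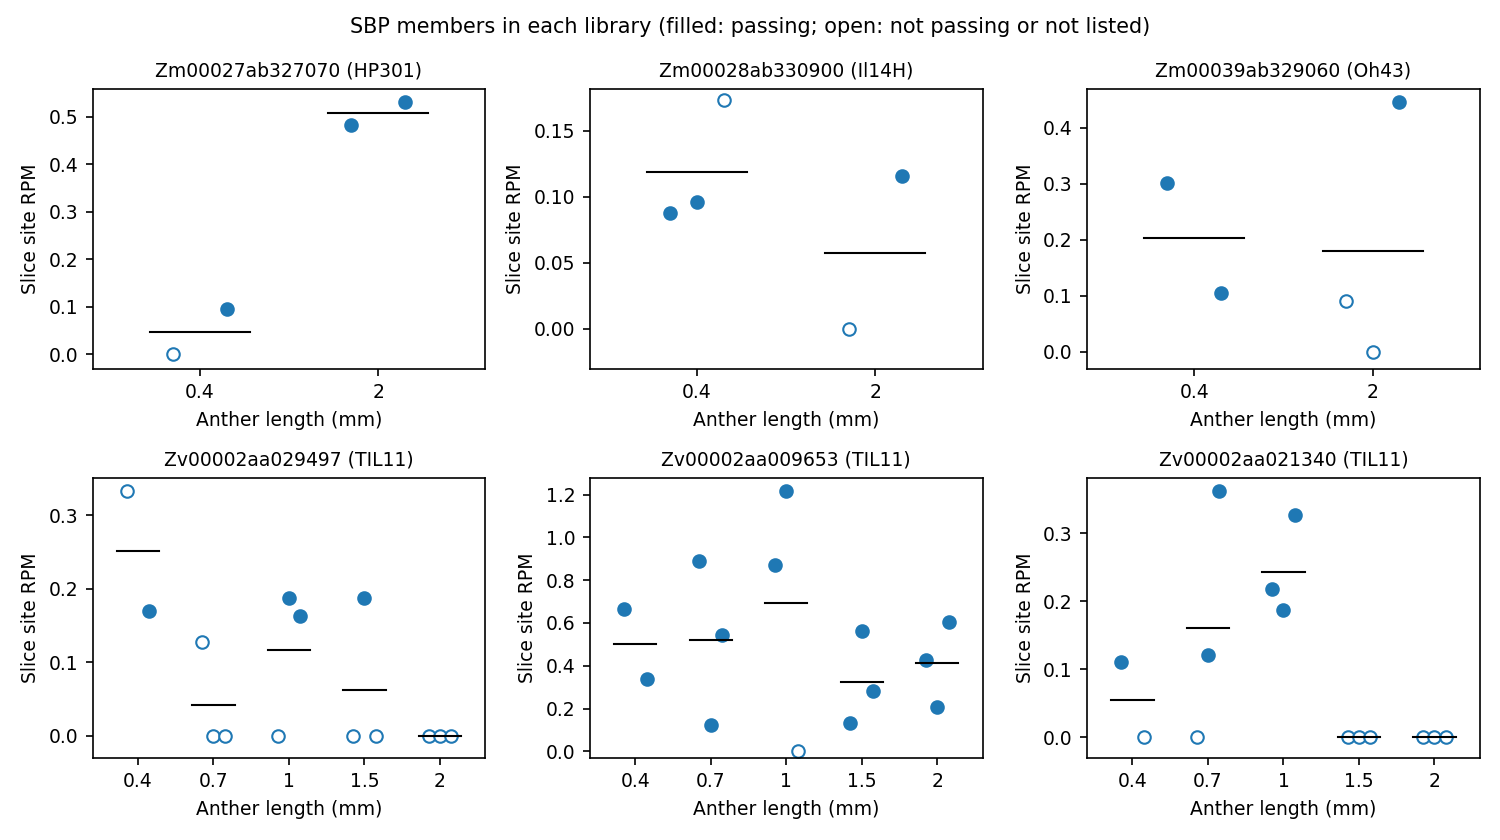
Slice site RPM (linear axes from 0, scaled per gene) of 6 SBP members by anther length in mm; each circle is a library, filled where the site passed and open where it did not pass or was not listed, and the bar is the mean of the length. The lengths of Zm00027ab327070, with 2 libraries each, do not overlap. Zv00002aa009653 passed in 13 of 14 TIL11 libraries, and Zv00002aa021340 stood at 0 in all 6 libraries of 1.5 and 2 mm.

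The remaining SBP members were the counterparts Zm00027ab231190 (HP301) and Zm00039ab231840 (Oh43), and Zm00028ab212920 (Il14H), all with perfectly paired miR156 sites. Zm00039ab231840 was listed and passed in 4 of 5 Oh43 libraries, at 0.151 and 0.106 RPM at 0.4 mm and at 0.0905, 0.139 and 0 RPM at 2 mm, 1 read each. Zm00027ab231190 stood at 0 and 0.036 RPM at 0.4 mm and at 0.107 and 0.076 RPM at 2 mm. The value of 0.036 RPM was 0.38 of a read at a miR529 site that did not pass, and the miR156 site was listed at 2 mm alone. Zm00028ab212920 was listed in replicates 4 and 5 of 0.4 mm Il14H anthers, at 0.0958 and 0.173 RPM, and at 0 elsewhere. Values of 1 read in neighbouring libraries are not distinguishable from each other.

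The other 10 members that passed in at least 2 libraries of a group all had guide-strand sites. In RIL003, RIL003_31298 was listed in all 8 libraries and passed in 7, with 0.223, 0.634 and 0.306 RPM at 0.4 mm, 0.312 and 0.224 RPM at 0.7 mm and 0.137, 0.135 and 0.625 RPM at 1.5 mm. RIL003_12314 passed in 6 of 8 libraries, with 0.668, 0.846 and 0 RPM at 0.4 mm, 0 and 0.449 RPM at 0.7 mm and 0.41, 0.135 and 0.125 RPM at 1.5 mm. The lengths overlapped for both genes. RIL003_22830 passed in 4 libraries of the 3 lengths, between 0.137 and 0.449 RPM. RIL003_18401 was listed at 1.5 mm alone, with 0.41, 0 and 0.25 RPM. Its difference from the shorter anthers missed the threshold (1.39 ± 0.56 (SE) on the log2(RPM + 0.1) scale, limma, adjusted p = 0.0673). The gene entered that fit only through the 1.5 mm libraries. The direction therefore follows from the filter, and the value supports no difference between lengths. In TIL11, Zv00002aa019149 was listed in meiotic anthers alone, at 0.375 and 0.142 RPM in replicates 2 and 3 of 1.5 mm and at 0.302 RPM in replicate 3 of 2 mm. Zv00002aa016067 and Zv00002aa016068 carried identical values, 0.0556 and 0.169 RPM in the 2 libraries of 0.4 mm, at miR529 sites with a score of 2.5. Their identifiers are successive and their values equal in both libraries, so they are read as 1 signal. The rest were Zm00028ab035530 in Il14H, Zx00003aa026120 in TIL25 and Zm00001eb232050 in ago18, described below. B73 was the only set without such a member.

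Among the members with the highest mean in each set, several rested on a single library. In HP301, Zm00027ab103040 stood at 0.33 RPM (3 reads) in replicate 1 of 0.4 mm and Zm00027ab436120 at 0.304 RPM (4 reads) in replicate 2 of 2 mm, each a perfectly paired miR156 site that passed there and stood at 0 elsewhere. Zm00028ab441860 in Il14H (0.347 RPM in replicate 4 of 2 mm) and Zm00039ab102850 in Oh43 (0.505 RPM in replicate 1 of 0.4 mm) had the same pattern. RIL003_30921, with a miR156 site of score 2, passed at 0.937 RPM (3 reads) in replicate 1 of 0.7 mm alone. Zm00001eb322280, also at score 2, was in both sets on the B73 genome. It stood at 0.303, 0.0764, 0 and 0.115 RPM in the B73 libraries (0.4 mm first), passing in the first, at 0.161 RPM in ago18HT replicate 2 and at 0.451 RPM in ago18HM replicate 3 of 0.5 mm, passing in the latter. Other members with high means had sites with scores of 3 or above that did not pass: Zm00039ab062870 in Oh43 at 0.278 RPM, Zv00002aa013977 in TIL11 at 0.487 and 0.375 RPM, and Zx00003aa033023 in TIL25 at 0.837 and 0.462 RPM (5 and 2 reads). Zx00003aa026591 in TIL25, at score 2, stood at 0.421 RPM at 0.4 mm without passing and at 0.231 RPM at 1.5 mm, passing. The 71 members that met none of the rules for naming a gene stood between 0.0324 and 0.49 RPM where listed, at most 3 reads. Of these, 53 were in a single library and 27 passed, 26 of them at guide-strand sites.

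A subset of 7 members had a miR156 site and a miR529 site on the same transcripts. In 6 of them the miR529 site lay 4 nt upstream of the miR156 site, the distance that the shared run gives for a 20-nt miR156. In Zx00003aa003061 (TIL25), listed with a 20-nt miR156, it lay 5 nt upstream. The sites are predicted from pairing. Where both miRNAs pair with the same stretch, the distance follows from their sequences and is no separate result. For Zm00001eb102440, Zm00001eb199880 and Zm00001eb317760 (ago18) the miR156 name had no sequence here, so its shared run was not determined. In every case the miR156 site paired better, with scores of 0 or 1 against 2 to 3 for miR529. In Zm00028ab035530 (Il14H) the miR529 site was read in replicate 3 of 2 mm (0.133 RPM, 1 read) and the miR156 site in replicate 4 (0.347 RPM, 3 reads), and both passed. In Zv00002aa003252 (TIL11), chosen here after its values were seen, the miR529 site had 3 reads at 1 mm (0.49 RPM) and the miR156 site 1 read at 1.5 mm (0.142 RPM), and both passed. Zx00003aa003061 had the highest value of any member, 4.69 RPM in TIL25 replicate 2 at 0.4 mm, which was 8 reads at its miR156 site in a library of 1.71 M reads. Its only other value was 0.0624 RPM, less than 1 read, at the miR529 site. Zx00003aa016521 and Zx00003aa026120 had the same value in that library, so the read cannot be given to 1 of these genes.

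No library listed both sites of a gene. In all the miRNA tables, the smallest distance between listed sites of a transcript in the same library was 6 nt, so sites 4 or 5 nt apart could not appear together and the lack of co-listing says nothing about the cuts.

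The question of how the reads at cut sites changed with anther length was put to each variety with limma over every pair of miRNA family and target. No transcript level entered these fits, so a change in cutting and a change in the amount of messenger RNA cannot be told apart. Only the 57 members listed in at least 2 libraries of their set entered these fits. In 13 of 226 tests of a member in a contrast the adjusted p was below 0.05, and these came from 8 genes. In 7 of the 8 genes, all but Zm00027ab327070, the site was listed in a single group of its set, mostly at 1 or 2 reads per library. These genes entered the fit only through the group where they are high, so that the call and its direction follow from the filter, and their values below are a description that supports nothing further. Their fitted difference depends on the pseudocount and is no bound on a fold change. Such differences are also frequent among all features tested, as the shares below show. Anthers are whole organs, so fewer cells with the transcript and less RNA per cell cannot be told apart.

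For HP301, 1 of 4 members tested was higher at 2 mm than at 0.4 mm and 1 was lower, against 28.4% and 36.1% of 194 features. The higher one was the SBP gene Zm00027ab327070, by 2.12 ± 0.50 (SE) on the log2(RPM + 0.1) scale (limma, adjusted p = 0.0318). The lower one was Zm00027ab439910, which had a miR156-3p site and 1 read in each library at 0.4 mm (0.11 and 0.0948 RPM). Its difference was -1.02 ± 0.13 (SE, limma, adjusted p = 0.00823). Leaving out either library of 2 mm ended both calls, with adjusted p of 0.231 and 0.26 for Zm00027ab327070 and 0.507 and 0.482 for Zm00027ab439910. Leaving out replicate 1 of 0.4 mm also ended the call of Zm00027ab327070 (0.276).

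In Il14H, 1 of 9 members tested was higher at 2 mm and none lower, against 20.6% of 214 features higher. It was Zm00028ab035530, which stood at 0 in the 3 libraries of 0.4 mm and at 0.133 and 0.347 RPM at 2 mm, a difference of 1.69 ± 0.46 (SE) on the log2(RPM + 0.1) scale (limma, adjusted p = 0.0258). Its value joins a miR529 cut in the first of these libraries with a miR156 cut in the other. The call was lost with a pseudocount of 1 (adjusted p = 0.0582) and with a replicate block (adjusted p = 0.141), and without either library of 2 mm the gene was in too few libraries to be tested. In B73, 1 of 3 members tested was lower at 2 mm and none higher, against 41.5% of 234 features lower. It was Zm00001eb274800, with a weakly paired miR156 site (score 4), at 0.151 and 0.0764 RPM at 0.4 mm and 0 at 2 mm (-1.07 ± 0.25 (SE), limma, adjusted p = 0.0444). That call was lost when either library of 2 mm was left out (adjusted p = 0.171 and 0.205). In Oh43 none of 4 members tested passed, against 50.5% of 196 features, with 1 member at an unadjusted p below 0.05. It was Zm00039ab236460, at 0.302 and 0.211 RPM at 0.4 mm and at 0, 0 and 0.112 RPM at 2 mm (-1.46 ± 0.48 (SE), limma, adjusted p = 0.0648).

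In TIL11 the meiotic lengths were set against the premeiotic ones, and 2 of 13 members tested were lower and none higher, against 19.3% of 430 features lower. Both were the pair Zv00002aa016067 and Zv00002aa016068, each with a difference of -0.52 ± 0.13 (SE) on the log2(RPM + 0.1) scale (limma, adjusted p = 0.00767). The same pair was lower at 0.7 than at 0.4 mm, by -1.03 ± 0.20 (SE, limma, adjusted p = 0.00432), where 3.26% of features were lower. These calls follow from the filter and rest on 0.5 and 1 read in the libraries of 0.4 mm, and none was made when either of those libraries was left out. No member passed between 0.7 and 1 mm, 1 and 1.5 mm, or 1.5 and 2 mm (limma), where 5.81%, 17.9% and 10.7% of features did. The count of members at an unadjusted p below 0.05 was 0, 1 and 0 in these steps. The median difference over the 13 members between meiotic and premeiotic anthers was -0.31, beside -0.17 over all features.

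In TIL25, 1 of 5 members tested was higher at 1.5 mm, against 26.3% of 228 features. Zx00003aa008440, with a miR156 site of score 1, stood at 0 in all 3 libraries of 0.4 mm and at 0.167, 0.462 and 0.189 RPM at 1.5 mm (1.81 ± 0.53 (SE), limma, adjusted p = 0.0415). The libraries of 0.4 mm were the shallower ones, with 1.71 to 2.56 M reads, and 60 of the 63 features called in this set were higher at 1.5 mm. The part of depth in this result was not tested. Leaving out any of these shallow libraries ended the call (adjusted p of 0.0966 to 0.147). In TIL25 the member Zx00003aa026120 passed in 2 libraries of 1.5 mm at a miR529 site, with 0.67 RPM in replicate 1 and 0.0624 RPM in replicate 3. The value in replicate 3 was 0.33 of a read. It was equal at Zx00003aa003061 and Zx00003aa016521 in that library, so these are not read as separate signals. In RIL003 none of 6 members tested passed between 1.5 mm and the shorter anthers, against 52.9% of 255 features, with 1 member at an unadjusted p below 0.05. That member was RIL003_18401, which entered the fit only through the 1.5 mm libraries.

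Summed over members, the guide-strand signal did not separate the shorter from the longer anthers in any variety. For TIL25 the paper names 0.4 mm as premeiotic and 2 mm as meiotic, and it gives no stage for 1.5 mm. The sum per library ran from 0.153 to 0.454 RPM at 0.4 mm in B73 and from 0.346 to 0.405 RPM at 2 mm. It ran from 0.226 to 0.771 and from 0.643 to 1.14 RPM in HP301, from 0.175 to 0.575 and from 0.265 to 1.16 RPM in Il14H, and for Oh43 from 0.528 to 1.51 and from 0.272 to 0.671 RPM. In TIL11 the premeiotic libraries ran from 0.731 to 2.03 RPM and the meiotic ones from 0.397 to 1.87 RPM, and in RIL003 they ran from 0.306 to 1.90 and from 0.676 to 1.37 RPM. The shallow TIL25 libraries of 0.4 mm ran from 0 to 4.69 RPM and those of 1.5 mm from 0.376 to 2.01 RPM. Every pair of ranges overlapped. The members listed in both were 20% (TIL25) to 50% (Il14H and Oh43) of a variety's list in the longer anthers. They were 25% (HP301) to 100% (TIL25, with 2 genes at 0.4 mm) of its list in the shorter ones. With 1 read at most sites, a change of list is not distinguishable from sampling at this depth.

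**Figure D3:**
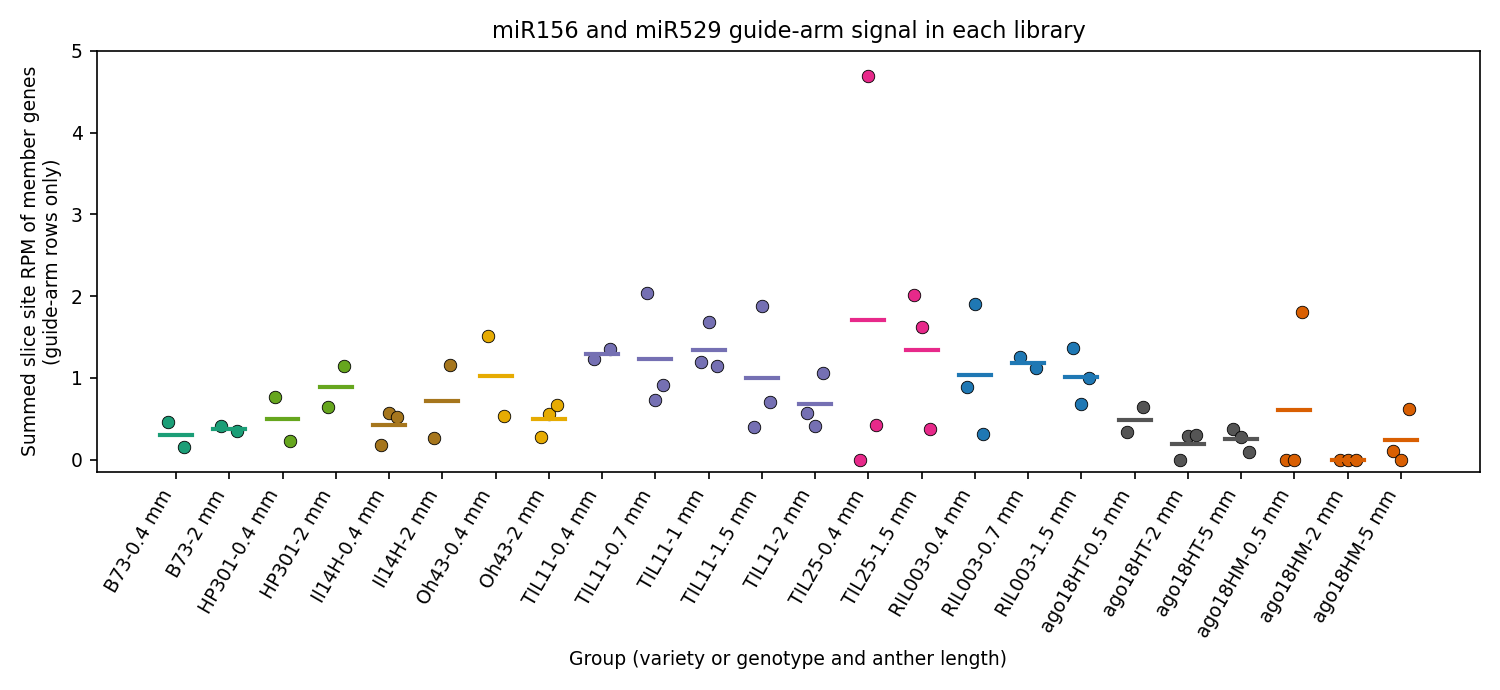
Summed slice site RPM of member genes with 5p (guide) rows in each of the 63 libraries, by group; points are libraries and bars group means. The teosinte libraries run up to 4.69 RPM (8 reads of a single gene), and all 3 ago18HM libraries of 2 mm stand at 0.

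The 18 maize inbred libraries had a median guide-strand sum of 0.523 RPM (0.153 to 1.51) and the 28 teosinte libraries a median of 1.09 RPM (0 to 4.69). The maize libraries were the deeper ones, with a median of 10.5 M reads against 5.94 M. The tables were made on different genomes with different miRNA lists (14 miR156 and miR529 names in B73, 5 to 7 in the others) and scaled separately, so these values stand side by side without a test.

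For ago18, the question was whether loss of this Argonaute, a small RNA effector protein of the grass anther, went with a change at these sites. Guide-strand sites of the members were listed in 7 of 8 ago18HT libraries and in 3 of 9 ago18HM libraries. At 0.5 mm the sums were 0.331 and 0.643 RPM in ago18HT and 0, 0 and 1.80 RPM in ago18HM. At 2 mm they were 0, 0.282 and 0.301 RPM in ago18HT and 0 in all 3 ago18HM libraries, which had 7.97 to 12 M reads. At 5 mm they were 0.376, 0.279 and 0.0921 RPM in ago18HT and 0.1, 0 and 0.617 RPM in ago18HM. The genotypes overlapped at every length. Pooled over lengths, ago18HT had 18.3 guide-strand reads in 66.7 M (0.274 RPM) at 10 genes and ago18HM 8 reads in 59 M (0.136 RPM) at 5 genes, and 4 of those 8 reads came from ago18HM replicate 3 at 0.5 mm. The ago18HM libraries were shallower (median 5.72 against 8 M reads), and they also listed fewer passing genes of any miRNA (median 16 against 24 per library). The part of depth was not tested.

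The sites with 3p rows alone showed 0.39 RPM, pooled, in ago18HM and 0.285 in ago18HT, over 6 and 9 genes. At 2 mm the ago18HM libraries, without any guide-strand read, had 13 reads at 4 such genes. Other families in the same libraries gave 0.933 against 1.35 RPM, pooled, for miR160 (ago18HM first), 0.89 against 0.944 for miR396 and 1.10 against 1.25 for miR172, also without a test.

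**Figure D4:**
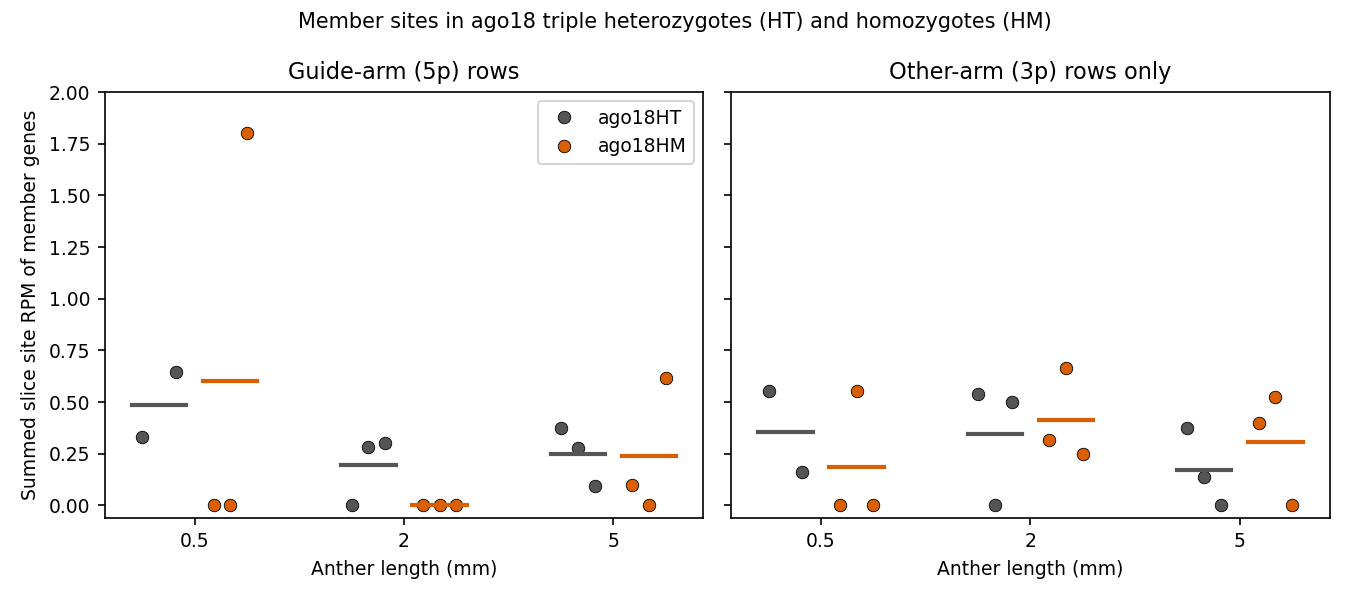
Summed slice site RPM of member genes in ago18HT (grey) and ago18HM (orange) anthers of 0.5, 2 and 5 mm, for 5p (guide) rows on the left and genes with 3p rows alone on the right; points are libraries and bars are means of 2 or 3. At 2 mm the 3 ago18HM libraries stand at 0 on the left and at 0.251 to 0.665 RPM on the right.

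By gene, 1 of 13 members tested was called between the genotypes. Zm00001eb097990, with a miR156 site of score 4 that never passed the pipeline's own test, had 1 read in each ago18HT library of 0.5 mm (0.11 and 0.161 RPM) and stood at 0 in the other 15 ago18 libraries. It was lower in ago18HM at 0.5 mm by -1.23 ± 0.12 (SE) on the log2(RPM + 0.1) scale (limma, adjusted p = 2.4e-06), where 8.91% of 460 features were lower, and over lengths by -0.41 ± 0.06 (SE, adjusted p = 0.000586), where 3.91% were. It was also lower at 2 than at 0.5 mm in ago18HT (-1.23 ± 0.12 (SE), adjusted p = 1.15e-06), where 17.6% were. The small SE reflects 0 in all other libraries, and since the gene entered the fit only through those 2 ago18HT libraries, these values support no difference between the genotypes. None of these calls was made when either of the 2 libraries with the read was left out. At 2 and 5 mm no member differed between the genotypes (limma), and 0.87% and 0% of features did. The members at an unadjusted p below 0.05 numbered 0 and 1.

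That 1 member at 5 mm was Zm00001eb232050, with a miR156 site of score 1, the only ago18 member that passed in at least 2 libraries of a group. It was listed in ago18HT alone, at 0.161 RPM in replicate 2 of 0.5 mm and at 0.251, 0 and 0.0921 RPM at 5 mm (2, 0 and 1 reads), and passed each time. The genotypes overlapped at 5 mm, since ago18HT replicate 2 also stood at 0, and the difference was -0.92 ± 0.39 (SE, limma, adjusted p = 0.856). The highest ago18 value, 1.35 RPM for Zm00001eb035030 in ago18HM replicate 3 at 0.5 mm, was 3 reads at a miR529 site in a library of 2.22 M reads. In ago18HT, 1 of 13 members was called between 0.5 and 2 mm and none between 2 and 5 mm (limma, 1 member at an unadjusted p below 0.05), against 3.48% of features in the latter step. In ago18HM none was called in either step (limma, with 0 members at an unadjusted p below 0.05 in both), against 12.4% and 0.87% of features.

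Among other families, miR172, whose AP2-like targets lie downstream of the SBP genes in Arabidopsis, had 58 target genes by the same rule. Of these 15 passed in at least 1 library (25.9%), and none in 2 libraries of a group. In 140 tests of its genes, 3 were called, 2 in B73 and 1 in RIL003. The miR160 targets passed in 56 of 66 cases and the miR396 targets in 92 of 135, so that the miR156 and miR529 members (61 of 119) stood between these families and miR172. Members with a guide-strand site passed in 58 of 88 cases (65.9%), near the 68.1% of miR396. Arms and pairing scores were not matched between families. The phasiRNA tables of the same samples listed 14 of the members at other positions, up to 0.634 RPM (3 reads), and no such row passed.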

How the data were processed

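Per the labels and the study's methods, every sample went through the nanoPARE pipeline, whose EndCut step gave the authors a table of miRNA sites and another of phasiRNA sites. The deposited values used were the slice site RPM (reads per 1000000), the Allen score and the adjusted p-value. B73 and ago18 reads were mapped to B73 RefGen_v5, the other inbreds, TIL11 and TIL25 to version 1 assemblies. The RIL003 target identifiers come from a transcriptome the authors assembled. The deposited fold column, the authors' own comparison, was not used.

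A feature was a miRNA family and a gene or PHAS locus with an Allen score of at most 4, at its highest RPM, or 0 if not listed. Features above 0 in at least 2 libraries of a set were fitted with limma 3.58.1 (R 4.3.3, lmFit and eBayes with trend, two-sided) on log2(RPM + 0.1), with Benjamini-Hochberg adjustment over all features of a contrast and a threshold of 0.05. In 77.5% to 89.5% of values per library the RPM came within 0.02 of a whole number of reads, so no count test was run. The fit was tested on simulated data. Replicates came from distinct plants. Correlations of deviations between libraries with the same replicate number had means of -0.115 to 0.0895 per set, and the numbers were not taken to pair samples.

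Genes were named if they passed in at least 2 libraries of a group, passed a contrast, were in the study's SBP rows or were among the 5 highest means of a set. The members and lists were chosen with earlier results of these data known. Alternatives were other pseudocounts, filters and score limits, summed sites, a replicate block, no trend and leaving out each library.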

Additional observations from a re-analysis of the deposited data

Results flagged for a closer look

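At Zm00001eb097990 a test of whether the genotype difference varied with anther length passed its threshold, but it shows no such change. The interaction of genotype with length (2 mm against 0.5 mm) was 1.23 ± 0.16 (SE) on the log2(RPM + 0.1) scale (limma, adjusted p = 7.81e-05), and 3.91% of 460 features had a positive interaction at this threshold. The site had 1 read in each of the 2 ago18HT libraries of 0.5 mm and stood at 0 in the other 15 libraries, so both genotypes were at 0 at 2 mm and the interaction restates the difference at 0.5 mm. The gene entered the fit only through the 2 libraries where it is high. Leaving out either of those 2 libraries took the gene below the limit of 2 libraries. In this interaction 2 members were at an unadjusted p below 0.05, the other being Zm00001eb160160 (0.93 ± 0.42 (SE), limma, adjusted p = 0.242). Between 5 and 2 mm no member passed (limma, with 0 at an unadjusted p below 0.05).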

How the results depend on the processing

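Over 21 contrasts, the count of members called was unchanged or within 1.5 times in 363 of 440 alternatives. This figure includes contrasts where the count stayed at 0, so it does not measure how stable the calls were. Without an Allen score limit, which adds weakly paired genes, it was 9 for B73, 5 for HP301, 4 for Il14H, 1 for Oh43, 6 for TIL11 between stages and 4, 1, 1 and 2 in its successive steps, 2 in TIL25 and 3 in RIL003. In ago18 it was then 5 between genotypes at 0.5 mm and 0 over lengths, 5 and 3 in the ago18HT steps, 1 and 3 in the ago18HM steps, and 3 in the interaction of 2 with 0.5 mm. More features and members were tested without the limit. The shares over all features are not set beside these counts, so they are no result about the members. A limit of 3 gave 0 in B73 and 0 in the ago18 contrasts called at 0.5 mm, over lengths, between 0.5 and 2 mm in ago18HT and in the interaction, since the score of 4 removes the gene. Without the filter the count was 0 in B73, HP301, Il14H, TIL25, TIL11 (stages and 0.7 against 0.4 mm) and ago18 over lengths, with more features tested. A pseudocount of 1 gave 0 in B73, Il14H and TIL25, and 0.02 gave 1 in HP301 and 1 in TIL11 between 1 and 1.5 mm. Without trend it was 0 in B73, TIL25 and TIL11 (stages and 0.7 against 0.4 mm) and 1 in TIL11 between 1 and 1.5 mm. The replicate block gave 0 in B73, 1 in HP301, 0 in Il14H and 0 in TIL25, and within 1.5 times elsewhere. The causes were not tested beyond what is stated.

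Leaving out a library gave 0 in B73, 0 to 3 in HP301 and TIL11 stages, 0 to 2 in Il14H, TIL25, TIL11 at 0.7 mm and the ago18HT step to 2 mm, and 0 to 1 in Oh43, RIL003, TIL11 at 1.5 mm, the ago18HT step to 5 mm and the 3 other ago18 contrasts with a call. In the 224 alternatives where a called gene was still tested, 38 calls lost the threshold and no difference changed sign. For 7 of the 8 genes, listed in a single group, the sign was fixed in advance under the score limit. Alternatives that took a gene out of the fit are not among the 224, so these counts do not measure stability.

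The 20 members passing in 2 libraries of a group became 61 when 1 library sufficed, and 17 to 20 without any 1 library. Without the 5 libraries under 3 M reads, a choice made after seeing the data, both this count and the summed RPM kept within these limits. The median summed RPM per library was 0.783, and 13.5 without a score limit. Leaving out a library gave 0.767 to 0.793. Most values rest on 1 read, which limits every comparison.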

Other observations

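Several of the members with the highest mean RPM in their set had sites that the pipeline did not pass. In B73 the highest mean belonged to Zm00001eb389230, with a miR529-3p site of score 4, at 0 and 0.382 RPM at 0.4 mm and at 0.27 and 0 RPM at 2 mm. It was also listed in 4 ago18 libraries, at 0.11 to 0.249 RPM, and did not pass in any. Zm00001eb385210, with a miR156-3p site, was listed in 3 ago18HM libraries and 1 ago18HT library at 0.126 to 0.416 RPM, again without passing. In TIL11 Zv00002aa006535, with a miR529-3p site, reached 0.667 RPM (6 reads) in replicate 1 of 0.4 mm. These values are within the range of those of the SBP members, whose sites passed in some libraries at 1 or 2 reads and in others at up to 13 reads.

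Among the 3p sites, 3 genes passed in at least 1 library. One met none of the rules for naming a gene. It had a miR156-3p site of score 2.5 and passed in both ago18HT libraries that listed it. These were replicate 2 of 0.5 mm (0.161 RPM, 1 read) and replicate 3 of 2 mm (0.201 RPM, 2 reads). The others were Zm00001eb433440 in B73 (0.227 RPM in replicate 1 of 0.4 mm, with 3 reads) and RIL003_8716 (0.668 and 1.06 RPM in replicates 1 and 2 of 0.4 mm, the latter passing).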
